A study of Saccharomyces cerevisiae with 18 samples.

Results

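Transcript levels of 10 genes of inositol-regulated phospholipid synthesis in Saccharomyces cerevisiae were compared between the engineered strains EPY330 and EPY338. The 10 include enzyme genes, the regulator genes INO2, INO4 and OPI1, and the transporter gene ITR1. The genes were taken by systematic name from the 5739 genes with a value on every array, and all 10 had one. They were INO1 (YJL153C), OPI3 (YJR073C), CHO1 (YER026C), CHO2 (YGR157W), PSD1 (YNL169C), INO2 (YDR123C), INO4 (YOL108C), OPI1 (YHL020C), ITR1 (YDR497C) and CKI1 (YLR133W). The rule that took them used their names and no measured value, and the group was proposed with earlier results of these data known.

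The study set out to compare ways of labeling RNA for NimbleGen expression arrays. RNA of 3 cultures per strain, grown from separate colonies in SD-His-Met-Leu medium and then induced for 24 h in YPG medium, was pooled into 1 sample for each strain. Each pool was labeled 3 times with each of 3 methods, which gave 18 arrays in 6 groups of 3. The direct random method primes cDNA synthesis with dye-labeled random nonamers, the indirect method couples the dye to finished cDNA, and the ds-cDNA method labels double-stranded cDNA. Both strains had the same medium and induction time, and none of the 18 arrays was labelled as an uninduced or inositol-supplemented sample. Neither the inositol content of the media nor the changes that set these engineered strains apart are given in the sources used here. Since the 3 arrays of a group are labelings of 1 pool, every p-value below measures the spread between labelings and not that between cultures.

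In yeast, phosphatidylcholine is made by 2 routes. In the first, phosphatidylserine is formed from CDP-diacylglycerol, decarboxylated to phosphatidylethanolamine and then methylated step by step. In the other, the Kennedy pathway, choline is phosphorylated, activated and joined to diacylglycerol. Many genes of these routes, and those for making and importing inositol, carry an inositol-responsive promoter element. A heterodimer of the basic helix-loop-helix proteins Ino2 and Ino4 binds this element and activates transcription. Opi1 represses the same genes. Phosphatidate and the membrane protein Scs2 hold Opi1 at the endoplasmic reticulum, and when inositol is supplied and phosphatidate is consumed Opi1 enters the nucleus.

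The values were log2 intensities between 7.25 and 15.88, 1 per gene and array. The median gene of an array read 9.99 to 10.02 after direct random or indirect labeling and 10.09 to 10.12 after ds-cDNA labeling. Replicate arrays were closest after direct random labeling, where the SD of 3 arrays had a median over all genes of 0.073, against 0.102 after indirect and 0.112 after ds-cDNA labeling. For the 10 genes, the median of the replicate SD, pooled over the strains, was 0.0677, 0.15 and 0.112 in the same order, and its highest value was that of OPI1 after indirect labeling, at 0.330. Background signal was not given in the values used, so it cannot be said how far INO2, which read as low as 7.96, stood above it.

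None of the 10 genes reached a 2-fold difference between the strains with any method, beside 0.767%, 0.889% and 0.662% of all genes in the order direct random, indirect and ds-cDNA. The largest fold-change was 1.22 for INO4 on the direct random arrays, 1.30 for OPI1 on the indirect arrays and 1.31 for OPI3 on the ds-cDNA arrays. Every difference was tested separately for each method with limma's moderated test on its 6 arrays, p-values were adjusted by Benjamini-Hochberg across the 5739 genes, and a gene was called at an adjusted p under 0.05.

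On the direct random arrays, CHO2, INO4, OPI1 and ITR1 were higher in EPY330 and OPI3 was lower. These 5 of 10 genes stood beside 22.4% of all genes called with that method, 11% higher and 11.4% lower. On the indirect arrays 1 of 10 passed, OPI3, which was lower in EPY330, beside 9.08% of all genes, 4.48% higher and 4.6% lower. On the ds-cDNA arrays 1 of 10 passed, PSD1, which was higher in EPY330, beside 6.33% of all genes, 3.76% higher and 2.56% lower. OPI3 was the only gene of the 10 called with 2 methods in the same direction, a pattern met by 8.43% of all genes, and none of the 10 was called with all 3 methods, beside 3.31% of all genes. None of these calls was left with the methods' t-test after the same adjustment, which called 651, 158 and 128 genes in all. In 1 limma fit of all 18 arrays, the direct random method gave no call among the 10, beside 713 of the 5739 genes. The indirect method gave 1 call, beside 880 genes. The ds-cDNA method gave 4, beside 994 genes in place of 363. These 4 were PSD1 (adjusted p = 0.0349), OPI3 (0.00963), CKI1 (0.0231) and ITR1 (0.0487).

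**Figure D1:**
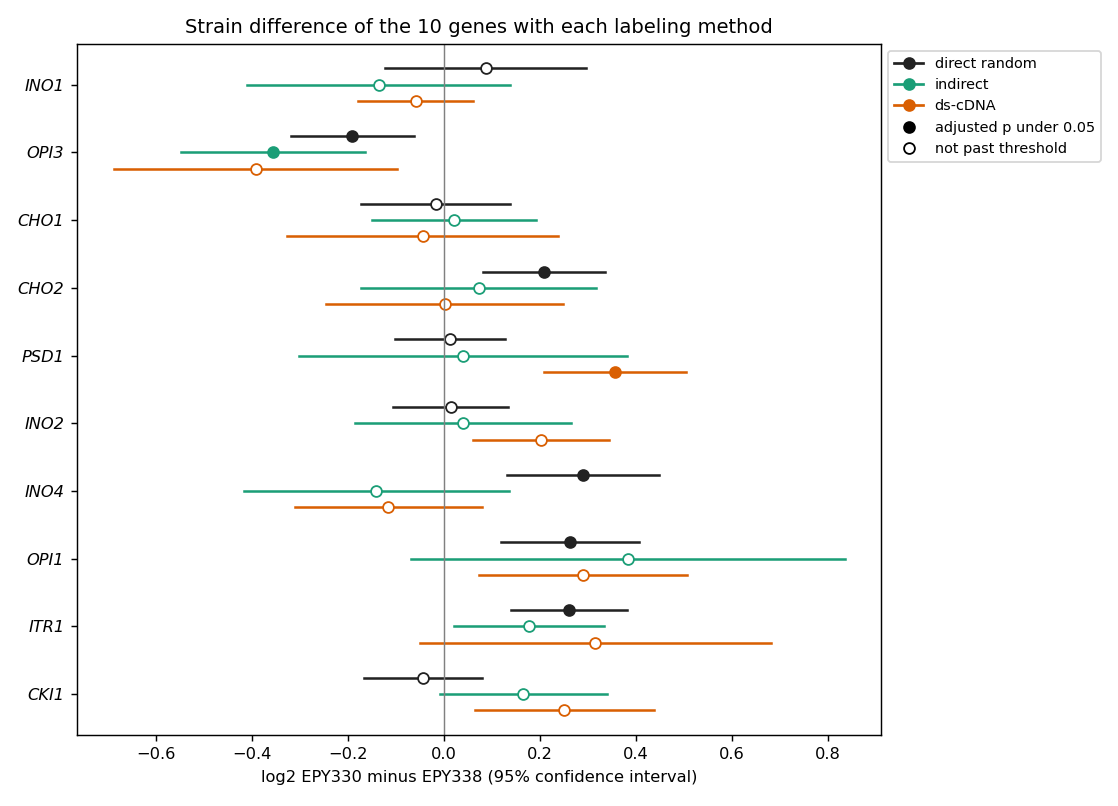
Log2 difference between EPY330 and EPY338 for each of the 10 genes (vertical axis), with 95% confidence intervals, for the direct random (black), indirect (green) and ds-cDNA (orange) methods. Filled points passed the adjusted p threshold of 0.05. OPI3 lies left of 0 and OPI1 and ITR1 right of 0 with every method, while INO1, INO4, CHO1 and CKI1 change sides. CHO2, PSD1 and INO2 also lie right of 0 with every method, close to it with some.

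The arrays of the strains were separated, counted without a test, in more genes than were called on the indirect and the ds-cDNA arrays. The 3 arrays of EPY330 all lay above those of EPY338 for 4 genes on the direct random arrays, 1 on the indirect and 5 on the ds-cDNA arrays, and all lay below for 1 gene with each. The shares over all genes were 19.3% above and 22% below, 12.2% and 18%, and 15.1% and 14.1%. Both OPI3 and ITR1 were separated in the same direction with all 3 methods, beside 10.5% of all genes. In 6 of 10 genes the difference had the same sign with all 3 methods, beside 57.3% of all genes. The median difference of the 10 genes was 0.05, 0.04 and 0.10 on the log2 scale in the order direct random, indirect and ds-cDNA, and that of all genes was -0.01, -0.02 and 0.00. The median size of the difference, regardless of sign, was 0.14, 0.14 and 0.23 for the 10 genes and 0.10, 0.10 and 0.11 for all genes.

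**Figure D2:**
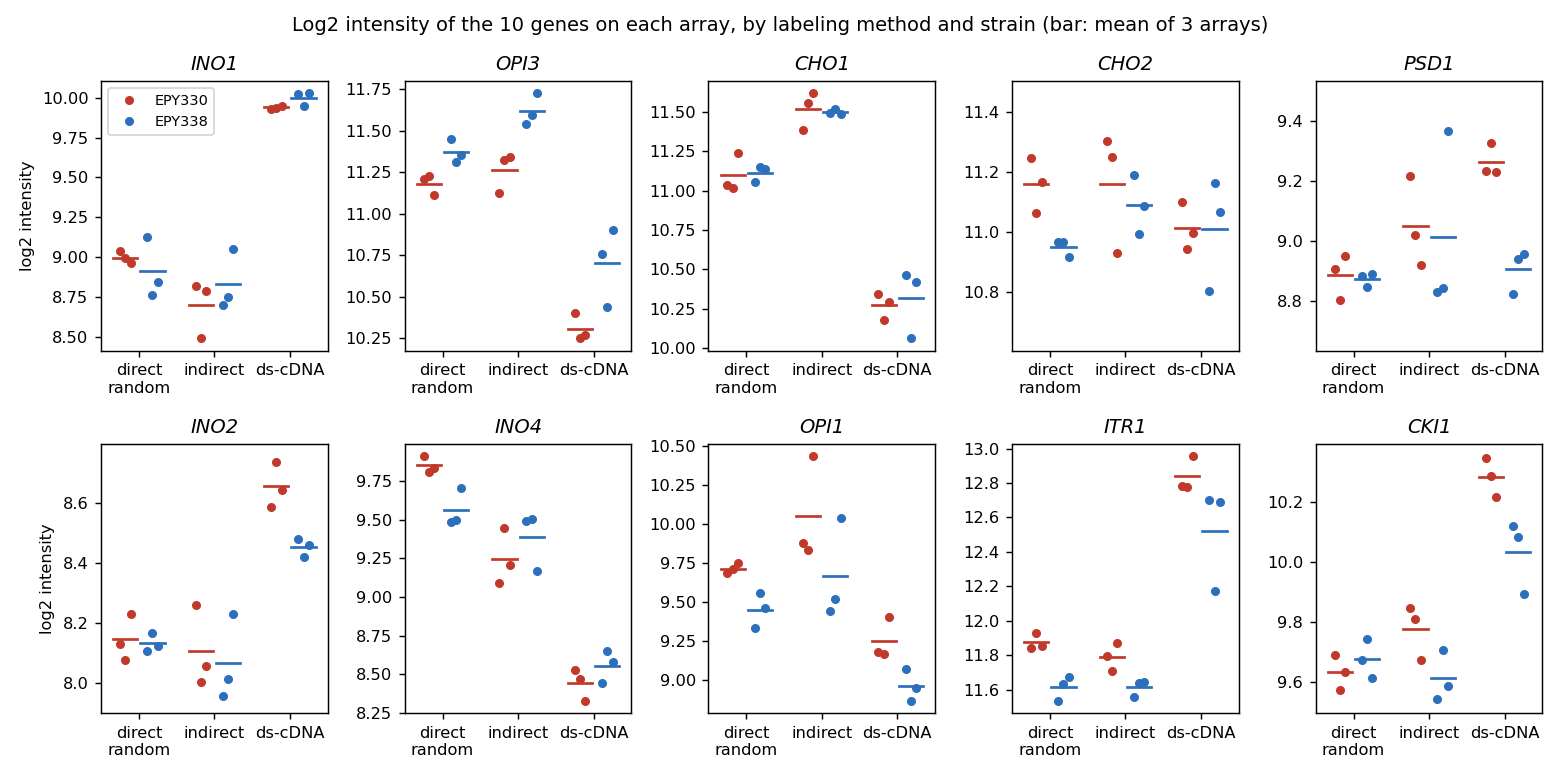
Log2 intensity of each of the 10 genes on all 18 arrays, by labeling method, with EPY330 in red, EPY338 in blue and a bar for the mean of 3 arrays. Each panel has its own vertical axis. The strains are separated with every method for OPI3 and ITR1, and overlap with every method for INO1 and CHO1.

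Among the regulators, the repressor gene OPI1 read higher in EPY330 by between 0.26 and 0.38 on the log2 scale with each method. After direct random labeling, OPI1 read 9.68, 9.71 and 9.75 in EPY330 and 9.34, 9.56 and 9.46 in EPY338. The strains did not overlap, and the difference was 0.26 on the log2 scale (SE 0.0615, n = 3 arrays per strain), a fold-change of 1.20 with an adjusted p of 0.0224 in limma. The call was lost on leaving out EPY330 replicate 2 (adjusted p = 0.0576), EPY330 replicate 3 (0.0671) or EPY338 replicate 3 (0.0564).

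After indirect labeling, OPI1 read 9.88, 9.83 and 10.44 in EPY330 and 9.44, 9.52 and 10.04 in EPY338. Replicate 3 was the brightest array in both strains, and the strains overlapped because the third array of EPY338 lay above the first and second of EPY330. The difference was 0.38 (SE 0.197) with an adjusted p of 0.271 in limma. Arrays of the same replicate number differed by 0.44, 0.31 and 0.40, and with the replicate number as a block the adjusted p was 0.0112. Over all genes, the deviations of indirect arrays with the same number correlated at 0.12, 0.15 and 0.25. Replicate 2 of EPY330 and replicate 1 of EPY338, which have different numbers, correlated at 0.205. With the other methods the same-number correlations lay between -0.19 and 0.02. The labels do not say what arrays of the same number share, so whether they were paired is not known.

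After ds-cDNA labeling, OPI1 read 9.18, 9.17 and 9.41 in EPY330 and 9.08, 8.87 and 8.95 in EPY338. These arrays did not overlap, and the difference of 0.29 (SE 0.0899, fold-change 1.22) did not pass the test in limma (adjusted p = 0.116).

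**Figure D3:**
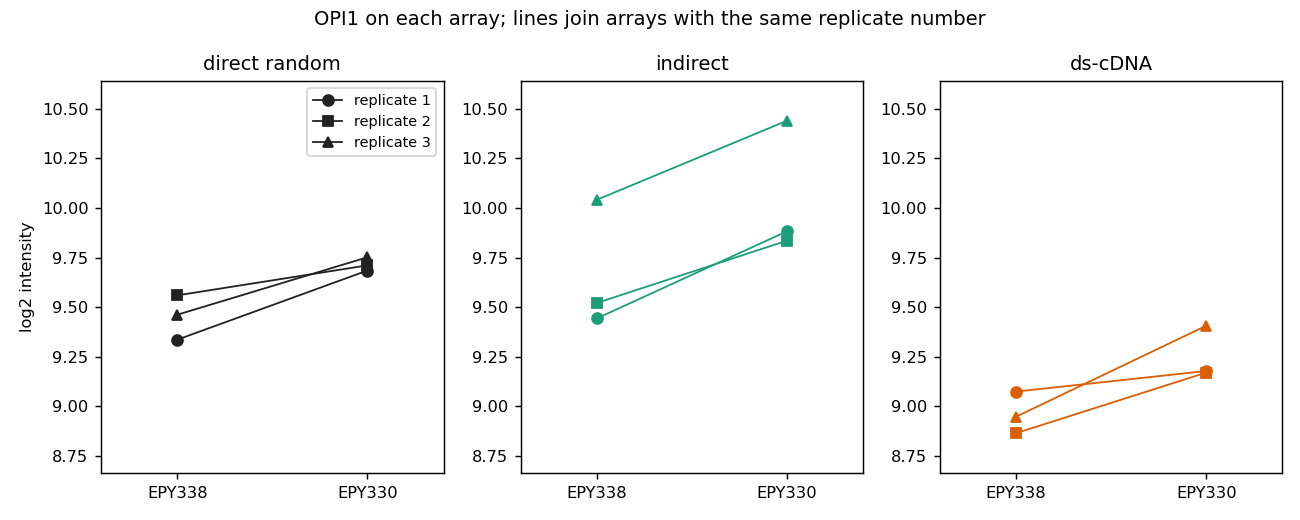
Log2 intensity of OPI1 on each array of EPY338 and EPY330, in 1 panel per labeling method, with lines joining arrays of the same replicate number. All 9 lines run upward to EPY330. With the direct random and ds-cDNA methods they would do so however the arrays were joined, since the strains do not overlap. Replicate 3 of the indirect method stands above the other replicates in both strains.

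INO4, which encodes a subunit of the activator, did not keep the sign of its difference. Direct random labeling gave readings of 9.91, 9.81 and 9.84 in EPY330 and 9.49, 9.50 and 9.71 in EPY338. The strains did not overlap, and EPY330 was higher by 0.29 (SE 0.0679, fold-change 1.22, adjusted p = 0.0225 in limma). Without EPY330 replicate 1 or 3 the adjusted p was 0.0690 or 0.0553, and without EPY338 replicate 1 or 2 it was 0.0640 or 0.0739.

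Indirect labeling gave INO4 readings of 9.09, 9.45 and 9.21 in EPY330 and 9.50, 9.51 and 9.17 in EPY338, a difference of -0.14 (SE 0.120, adjusted p = 0.530). By ds-cDNA labeling it read 8.52, 8.47 and 8.32 against 8.44, 8.65 and 8.58, a difference of -0.12 (SE 0.0809, adjusted p = 0.442). The strains overlapped with both methods.

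INO2, the gene for the other subunit of the activator, lay between 7.96 and 8.26 on all 12 arrays of the direct random and the indirect method, and the strains overlapped with both. The differences were 0.01 and 0.04, with adjusted p of 0.882 and 0.866 in limma. By ds-cDNA labeling INO2 read 8.59, 8.74 and 8.64 in EPY330 and 8.48, 8.42 and 8.46 in EPY338, which did not overlap. That difference of 0.20 (SE 0.0589, fold-change 1.15) had an adjusted p of 0.0994, and of 0.0291 when the prior variance followed intensity.

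INO1 encodes inositol-3-phosphate synthase, which makes inositol-3-phosphate from glucose 6-phosphate, and is the textbook target of Ino2, Ino4 and Opi1. Its level was not found to differ between the strains with any method. Direct random labeling gave INO1 readings of 9.04, 9.0 and 8.96 in EPY330 and 9.12, 8.76 and 8.85 in EPY338, so that the first array of EPY338 was the highest of the 6. Indirect labeling gave 8.82, 8.49 and 8.79 against 8.70, 8.75 and 9.05. The ds-cDNA labeling gave 9.93, 9.94 and 9.95 against 10.02, 9.95 and 10.03.

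The strains overlapped for INO1 with all 3 methods. The fold-change of EPY330 over EPY338 had 95% confidence intervals of 0.918 to 1.23 on the direct random, 0.752 to 1.10 on the indirect and 0.883 to 1.04 on the ds-cDNA arrays, with adjusted p of 0.532, 0.545 and 0.528 in limma. Leaving out EPY338 replicate 1 of the direct random method made the difference 0.19 with an adjusted p of 0.0477.

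ITR1 encodes the main inositol transporter of the plasma membrane, and its arrays separated the strains with every method. Labeled by the direct random method, ITR1 read 11.85, 11.93 and 11.85 in EPY330 and 11.53, 11.63 and 11.67 in EPY338. The difference was 0.26 (SE 0.0515, fold-change 1.20, adjusted p = 0.0121 in limma). Of the 5 calls with that method it was the one that held when any array was left out, with adjusted p between 0.0193 and 0.0403.

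Labeled by the indirect method, ITR1 read 11.80, 11.71 and 11.87 in EPY330 and 11.56, 11.64 and 11.64 in EPY338, a difference of 0.18 (SE 0.0684, adjusted p = 0.15). Labeled as ds-cDNA, it read 12.78, 12.78 and 12.96 against 12.70, 12.18 and 12.69, a difference of 0.32 (SE 0.152, adjusted p = 0.265). Every array of EPY330 was above every array of EPY338 in both cases, and the second array of EPY338 stood well below the other two on the ds-cDNA arrays.

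In the route through phosphatidylserine, OPI3 was lower in EPY330. Opi3 is the phospholipid methyltransferase of the last methylations that yield phosphatidylcholine. On the direct random arrays it read 11.21, 11.22 and 11.11 in EPY330 and 11.45, 11.31 and 11.36 in EPY338. The difference was -0.19 (SE 0.0544, fold-change 0.876, adjusted p = 0.0432 in limma), and the call was lost on leaving out any 1 of the 6 arrays, with adjusted p between 0.0542 and 0.115.

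On the indirect arrays OPI3 read 11.13, 11.32 and 11.34 in EPY330 and 11.54, 11.59 and 11.73 in EPY338, a difference of -0.36 (SE 0.0834, fold-change 0.781, adjusted p = 0.0352). This call held without EPY338 replicate 1 (adjusted p = 0.0477) and was lost without EPY330 replicate 1 (0.107), 2 (0.0733) or 3 (0.0624), without EPY338 replicate 2 (0.0973) or 3 (0.0765), and with quantile normalization within the method (0.0504). On the ds-cDNA arrays OPI3 read 10.40, 10.25 and 10.27 against 10.76, 10.44 and 10.90, the largest difference of the gene, at -0.39 (SE 0.123, fold-change 0.761, adjusted p = 0.118). EPY338 replicate 2 was the array nearest to EPY330, and without it the difference was -0.52 with an adjusted p of 0.0456. The strains did not overlap with any of the 3 methods.

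CHO2 encodes the phosphatidylethanolamine methyltransferase that acts just before Opi3, and it did not share the direction of OPI3. After direct random labeling CHO2 read 11.25, 11.07 and 11.17 in EPY330 and 10.97, 10.97 and 10.92 in EPY338. EPY330 was higher by 0.21 (SE 0.0544, fold-change 1.16, adjusted p = 0.0327 in limma). The call was kept only without EPY330 replicate 2 (adjusted p = 0.0218). It was lost without EPY330 replicate 1 (0.0846) or 3 (0.0822) and without EPY338 replicate 1 (0.0664), 2 (0.0750) or 3 (0.0911). The strains overlapped with the other methods, where the difference was 0.07 (SE 0.107, adjusted p = 0.745) on the indirect and 0.00 (SE 0.103, adjusted p = 0.996) on the ds-cDNA arrays.

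PSD1, the mitochondrial phosphatidylserine decarboxylase gene, passed the test with the ds-cDNA method and with no other. There it read 9.23, 9.33 and 9.23 in EPY330 and 8.82, 8.94 and 8.96 in EPY338. The difference was 0.36 (SE 0.0614, fold-change 1.28, adjusted p = 0.0245 in limma), and without any 1 of the 6 arrays the adjusted p lay between 0.0587 and 0.0821. On the direct random arrays the values lay between 8.80 and 8.95 and differed by 0.01 (SE 0.0492, adjusted p = 0.893).

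After indirect labeling PSD1 read 9.21, 9.02 and 8.92 in EPY330 and 8.83, 8.84 and 9.36 in EPY338, a difference of 0.04 (SE 0.149, adjusted p = 0.912). The third array of EPY338 was the highest of these 6, so that the differences between arrays of the same number were 0.39, 0.18 and -0.45.

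CHO1, the phosphatidylserine synthase gene at the head of this route, was not found to differ. Its differences were -0.02, 0.02 and -0.04 on the log2 scale in the order direct random, indirect and ds-cDNA, with adjusted p of 0.882, 0.908 and 0.881 in limma. The 95% confidence intervals of the fold-change were 0.887 to 1.10, 0.900 to 1.14 and 0.797 to 1.18, and the strains overlapped with every method.

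CKI1 encodes choline kinase, the first enzyme of the Kennedy pathway. On the direct random arrays it read 9.69, 9.57 and 9.63 in EPY330 and 9.67, 9.74 and 9.61 in EPY338, a difference of -0.04 (SE 0.0523, adjusted p = 0.593 in limma). On the indirect arrays it read 9.85, 9.81 and 9.67 against 9.54, 9.71 and 9.59, a difference of 0.17 (SE 0.0758, adjusted p = 0.219). On the ds-cDNA arrays it read 10.35, 10.29 and 10.22 against 10.12, 10.08 and 9.89, which did not overlap, and the difference was 0.25 (SE 0.0777, adjusted p = 0.115). The difference was negative with the first of these methods and positive with the others, and the strains overlapped in the direct random and the indirect method.

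The strain difference averaged over the 3 methods, a contrast added after the results of each method were seen, was taken from the fit of all 18 arrays. OPI3 was lower in EPY330 by this measure, at -0.31 (SE 0.0557, fold-change 0.805, adjusted p = 0.00033 in limma). OPI1 was higher by 0.31 (SE 0.0869, fold-change 1.24, adjusted p = 0.00985) and ITR1 by 0.25 (SE 0.0609, fold-change 1.19, adjusted p = 0.00405). CKI1 was higher by 0.12 (SE 0.0412, fold-change 1.09, adjusted p = 0.0261), a call lost with a prior variance that followed intensity (0.0586). The call of CKI1 was also lost on leaving out replicate 1 of EPY330 (adjusted p = 0.0554) or replicate 3 of EPY338 (0.0556) of the direct random method, replicate 1 of EPY330 (0.0550) or EPY338 (0.0511) of the indirect method, and replicate 1 of EPY330 (0.0513) or replicate 3 of EPY338 (0.0535) of the ds-cDNA method. Over all genes, 16.1% were called higher and 19.8% lower, beside 3 and 1 of the 10. For INO1 the mean difference was -0.04, with a 95% confidence interval of -0.16 to 0.09.

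Whether the strain difference itself depended on the labeling method was tested as an interaction in the same fit. For the direct random against the indirect method, 0 of 10 genes and 0% of all genes passed in limma. At an unadjusted p under 0.05 there was 1 of 10, INO4, beside 5.66% of all genes. The strain difference of INO4 was larger by 0.43 (SE 0.145) on the direct random arrays, with an adjusted p of 0.618.

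For the direct random against the ds-cDNA method, 0 of 10 passed beside 0.575% of all genes, and 3 of 10 had an unadjusted p under 0.05 beside 10% of all genes. These were INO4, with a difference between methods of 0.41 and an adjusted p of 0.316, CKI1 with -0.30 and 0.294, and PSD1 with -0.35 and 0.470. The fit takes a common spread per gene from the arrays of every method, so the SE of PSD1 was 0.156 in each contrast. Within the methods its SE was 0.0492 (direct random), 0.0614 (ds-cDNA) and 0.149 (indirect). The test of PSD1 thus included the spread of indirect arrays outside the comparison, and not passing does not show equal strain differences. For the indirect against the ds-cDNA method, 0 of 10 passed beside 0.697% of all genes, and 0 of 10 had an unadjusted p under 0.05 beside 11.5%. The 95% intervals of these contrasts reached a median of 0.30 and at most 0.45 to either side on the log2 scale.

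The same RNA pools gave different log2 intensities when labeled in different ways. The paper states that the methods also differed in the amount of cDNA hybridized, and that the indirect method used another dye. Scanner gain was adjusted separately for each array. What these contributed to the intensities was not tested. The methods were compared gene by gene on the mean of both strains. Against the ds-cDNA method, the direct random method gave a different intensity for 9 of 10 genes, all but CHO2, beside 87.1% of all genes. The indirect method did so for 8 of 10, all but CHO2 and PSD1, beside 89% of all genes. Between the direct random and the indirect method 5 of 10 genes differed, beside 64.5% of all genes. The median size of the intensity difference of the 10 genes was 0.64, 0.79 and 0.16 for these comparisons, and that of all genes was 0.63, 0.70 and 0.22.

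INO1 was brighter on the ds-cDNA arrays, with a mean log2 intensity of 9.97 over 6 arrays against 8.96 on the direct random and 8.77 on the indirect arrays. ITR1 was brighter with it too, at 12.68 against 11.75 and 11.70, and so were INO2, at 8.55 against 8.14 and 8.09, and CKI1, at 10.16 against 9.65 and 9.69. The opposite held for INO4, which read 8.50 on the ds-cDNA arrays against 9.71 and 9.32. OPI3 at 10.50 against 11.28 and 11.44, CHO1 at 10.30 against 11.11 and 11.51, and OPI1 at 9.11 against 9.58 and 9.86 were also dimmer on the ds-cDNA arrays. All of these 16 differences passed in limma, and those of INO1, CHO1 and INO4 were as large as -1.20, 1.21 and 1.21 on the log2 scale.

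Between the direct random and the indirect method the differences were smaller. INO4 was brighter on the direct random arrays by 0.39 and INO1 by 0.19 (adjusted p = 0.0289 for INO1 in limma). CHO1, OPI1 and OPI3 were dimmer with it, by -0.40, -0.28 and -0.16 (adjusted p = 0.0312 for OPI1 and 0.0434 for OPI3). The calls of INO1, OPI1 and OPI3 were each lost without certain arrays. INO1 was lost on leaving out direct random EPY330 replicate 1 (adjusted p = 0.0578) or EPY338 replicate 1 (0.0932), or indirect EPY330 replicate 2 (0.0909), EPY338 replicate 1 (0.0799) or EPY338 replicate 2 (0.0682). OPI1 was lost without direct random EPY330 replicate 1 (0.0563) or 2 (0.0510) or EPY338 replicate 1 (0.0726), or indirect replicate 3 of EPY330 (0.0962) or EPY338 (0.101).

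OPI3 was lost as a difference between the direct random and the indirect method without any direct random array but EPY338 replicate 1, and without indirect EPY330 replicate 2 or 3 or EPY338 replicate 2 or 3, with adjusted p of 0.0510 to 0.106 in limma. PSD1 was gained there without indirect EPY338 replicate 1 (0.0364) or 2 (0.0425), and between the indirect and the ds-cDNA method without indirect EPY338 replicate 3 (0.0173), while it was lost between the direct random and the ds-cDNA method without direct random EPY330 replicate 2 (0.0510). CHO2 was gained between the indirect and the ds-cDNA method without indirect EPY330 replicate 3 (0.0173). The median over the arrays of the ds-cDNA method was higher by 0.10 than that of either other method. With each array centred on its median, PSD1 no longer differed between the direct random and the ds-cDNA method (-0.10, adjusted p = 0.210), and CHO2 differed between the indirect and the ds-cDNA method (0.22, adjusted p = 0.00852).

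**Figure D4:**
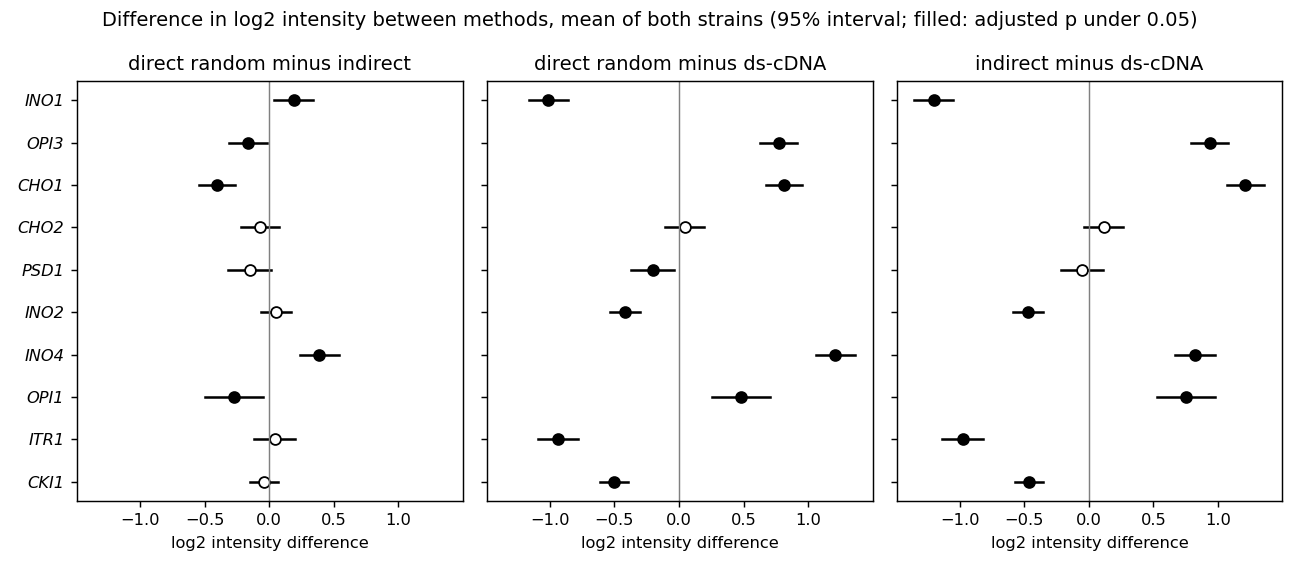
Difference in log2 intensity between labeling methods for each of the 10 genes, as the mean of both strains with its 95% confidence interval, in 1 panel per pair of methods. Filled points passed the adjusted p threshold of 0.05. INO1, ITR1, INO2 and CKI1 lie left of 0 and OPI3, CHO1, INO4 and OPI1 right of 0 in both comparisons against the ds-cDNA method.

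Other genes of phospholipid metabolism were followed in 6 lists of 41 genes, of which 40 were measured. On the direct random arrays 4 were called higher and 8 lower in EPY330, on the indirect arrays 2 and 2, and on the ds-cDNA arrays 3, all lower. These 12, 4 and 3 of 40 stood beside 22.4%, 9.08% and 6.33% of all genes. Their median differences were -0.02, -0.02 and -0.00. The 11 genes of phosphatidate synthesis and turnover had negative differences for 9 of 11 with each method, beside 53.1%, 57.4% and 49.5% of all genes, with medians of -0.17, -0.10 and -0.16. In that list 4 of 11 were called lower on the direct random arrays, GPT2, AYR1, SPO7 and DPP1, beside 11.4% of all genes. On the indirect arrays NEM1 and DPP1 were lower, beside 4.6% of all genes, and DGK1 was higher, beside 4.48%. On the ds-cDNA arrays AYR1 and DPP1 were lower, beside 2.56% of all genes.

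Of the 40 measured genes in these lists, DPP1, AYR1 and PCT1 were called with at least 2 methods in the same direction. The share over all genes was 8.43%. DPP1 encodes a phosphatase of diacylglycerol pyrophosphate and phosphatidate in the vacuole membrane. It alone was called with all 3 methods in the same direction, beside 3.31% of all genes. Its log2 difference was -0.38 on the direct random, -0.35 on the indirect and -0.36 on the ds-cDNA arrays, with adjusted p of 0.0118, 0.0498 and 0.0242 in limma. On leaving out 1 array, the adjusted p of DPP1 stayed between 0.0129 and 0.0450 on the direct random arrays. It reached 0.164 on the indirect arrays, where leaving out EPY330 replicate 1 or 3 or EPY338 replicate 1 or 2 ended the call. On the ds-cDNA arrays it reached 0.0817, and the call held only without EPY330 replicate 3. By the methods' t-test DPP1 was not called (adjusted p of 0.0758, 0.181 and 0.0686), and its indirect call was also lost with a trend in the prior variance (0.0573), with median centring (0.0594) and with quantile normalization within the method (0.0657).

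AYR1, the acyl-dihydroxyacetone-phosphate reductase gene, was called with 2 methods. It differed by -0.52 on the direct random arrays (adjusted p = 0.00204) and by -0.47 on the ds-cDNA arrays (0.0137), and by -0.21 on the indirect arrays (0.160). Without EPY330 replicate 1 or 2 of the ds-cDNA method the adjusted p of AYR1 was 0.0530 or 0.0569, and without EPY338 replicate 3 of the indirect method it was 0.0440. The methods' t-test gave 0.0623 for AYR1 on the ds-cDNA arrays.

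PCT1 encodes the enzyme that activates phosphocholine with CTP, the step after Cki1. It differed by -0.28 on the direct random arrays (adjusted p = 0.0236 in limma) and by -0.37 on the ds-cDNA arrays (0.0437), and by -0.08 on the indirect arrays (0.705). Any 1 array left out ended the ds-cDNA call of PCT1 (adjusted p between 0.0571 and 0.126), and EPY330 replicate 1, 2 or 3 or EPY338 replicate 3 did so on the direct random arrays (0.0570 to 0.0647). The methods' t-test gave PCT1 adjusted p of 0.0994 and 0.123 for these calls, and 1 fit of all 18 arrays gave 0.0554 for the former. Of the 5 genes in its list, which leaves out CKI1, EPT1 was the other one called. It was higher on the direct random arrays, beside 11% of all genes. The medians of that list were 0.03, 0.04 and -0.16 in the order direct random, indirect and ds-cDNA.

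Among 5 genes of inositol, choline and glycerophosphoinositol supply, INM1 and HNM1 were higher on the direct random arrays, beside 11% of all genes. INM1, an inositol monophosphatase gene chosen here after its values were seen, differed by 0.39 (SE 0.047, adjusted p = 0.00153), 0.15 (adjusted p = 0.373) and -0.02 (adjusted p = 0.946) in the order direct random, indirect and ds-cDNA. The medians of the list were -0.01, 0.12 and 0.02. Of 6 other regulators of inositol-responsive genes, SCS2 and SIN3 were lower on the direct random arrays, beside 11.4% of all genes. SCS2 encodes the membrane anchor of Opi1, and SIN3 a subunit of a histone deacetylase complex. The list medians were 0.00, -0.01 and -0.01. Of 6 genes of the CDP-diacylglycerol branch and of mitochondrial phospholipids, CRD1 was lower on the direct random arrays, beside 11.4% of all genes. GEP4 was higher on the indirect arrays, beside 4.48%, and the list medians were -0.01, 0.02 and 0.01. Of 7 phospholipase and deacylation genes, PLB3 was higher on the direct random arrays, beside 11% of all genes. The list medians were 0.05, 0.16 and 0.05.

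**Figure D5:**
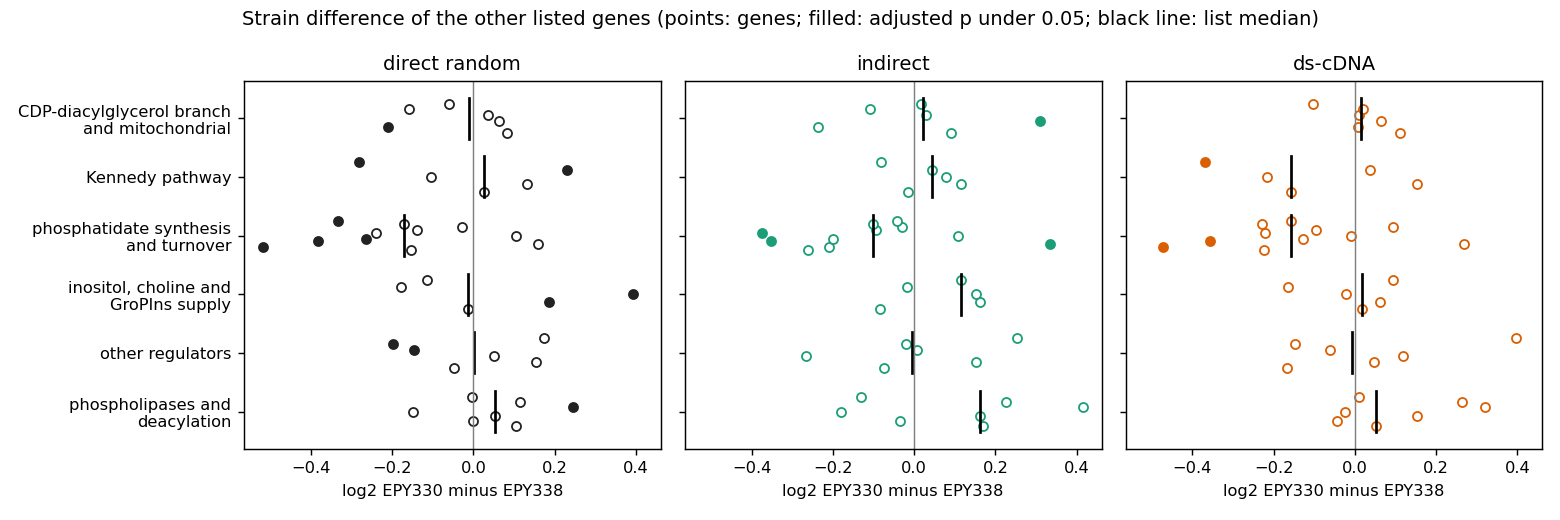
Log2 difference between EPY330 and EPY338 of the 40 other measured genes of phospholipid metabolism, by list (vertical axis) and labeling method (panels). Each point is a gene, filled where the adjusted p passed 0.05, and the black line is the list median. The median of the phosphatidate list lies at -0.17, -0.10 and -0.16, and the other medians lie closer to 0 or change sign, except that of the phospholipases, which is positive throughout.

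The genes closest to INO1 in their course over the 18 arrays, after the mean of each method was subtracted, were PPR1 (Pearson r = 0.902), YDR169C-A (0.822) and YHR214C-E (0.818). The arrays share 2 RNA pools, and the strain differences of these 3 genes lay between -0.0529 and 0.0291 with every method, as a description without a test. The other 9 genes of inositol-regulated phospholipid synthesis had r between -0.35 for CKI1 and 0.36 for OPI3 with INO1.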

How the data were processed

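RNA of 2 strains was measured on 18 one-colour NimbleGen arrays. The deposited values are log2 intensities, 1 for each gene on each array, which the authors obtained by RMA with quantile normalization in ArrayStar, and no reference sample enters them. Of 5861 entries, 122 without values were dropped, which left 5739 genes without further filtering, and every column was used. Scanner files were not used here. Symbols came from RefSeq's R64 annotation by systematic name, which matched 5733 genes. The build of the probe design is not given in the sources used here, so no coordinates are printed.

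Strains were compared within each method with limma 3.58.1 in R 4.3.3, by a two-sided moderated test with Benjamini-Hochberg adjustment over all genes, called at 0.05. Interactions, intensities and the mean over methods came from 1 fit of 18 arrays with 6 group means. The limma model was tested on simulated data. Array number limits the precision, at 3 per group. Which slide held each array is not stated in the labels, so slide was not a term.

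The members and gene lists were chosen with earlier results of these data known. All 10 members are named, together with listed genes called in the same direction with at least 2 methods (at most 4 per list) and the 3 genes most correlated with INO1. Other listed genes are named where a count was small, after their values were seen. PIS1 was not analysed here.

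Arrays of both strains with the same number deviated together with the indirect method (correlations of 0.12, 0.15 and 0.25 over all genes, where 1 pair of different numbers, EPY330 replicate 2 and EPY338 replicate 1, also reached 0.205), and not with the direct random (0.01, -0.10 and -0.04) or ds-cDNA method (-0.08, 0.02 and -0.19). Alternatives were the methods' t-test (Student's t-test with the same adjustment), a replicate block, limma's prior variance with a trend on intensity, arrays centred on their medians or quantile normalized again by method, genes without the dimmest 25%, a threshold of 0.01, 1 fit of all 18 arrays, and leaving out each array.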

Additional observations from a re-analysis of the deposited data

How the results depend on the processing

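Calls among the 10 genes numbered 5 for direct random, 1 for indirect and 1 for ds-cDNA labeling, and over all genes 1288, 521 and 363. With the methods' t-test these became 0, 0 and 0, and 651, 158 and 128. At an adjusted p under 0.01 they became 0, 0 and 0, and 538, 195 and 103. In 1 fit of 18 arrays the direct random method gave 0 calls (713 over all genes), the ds-cDNA method 4 (994), and the indirect method 880 over all genes. A trend in the prior variance gave 2 calls (599) with the ds-cDNA method. Quantile normalization within each method gave 0 (529 over all genes) with the indirect method. Leaving out the dimmest 25% of genes left 8 of the 10 in the fit. That gave 0 calls (382 over all genes) with the ds-cDNA method, since PSD1 was among those removed. Without 1 array, calls ranged from 1 to 3 (850 to 1026 over all genes), from 0 to 1 (274 to 460) and from 0 to 1 (166 to 211).

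With the replicate block there were 3, 2 and 0 calls, and 924, 700 and 115 over all genes. Here OPI3 (adjusted p = 0.0725 in limma) and CHO2 (0.0623) were lost with the direct random method. With the ds-cDNA method PSD1 (0.0835), PCT1 (0.122), AYR1 (0.0555) and DPP1 (0.0932) were lost. Why these calls were lost was not tested. For the indirect method, the block changed no call among the 10 genes other than that of OPI1.

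Interactions over all genes numbered 0, 33 and 40 for direct random against indirect, direct random against ds-cDNA, and indirect against ds-cDNA. A trend gave 4, 52 and 61, the replicate block 1 for the first, leaving out dim genes 25 for the last, and an adjusted p under 0.01 gave 17 and 20 for the last pair of contrasts. Without 1 array they ranged from 0 to 1, 21 to 52 and 24 to 52. Intensity calls among the 10 genes between the direct random and the indirect method numbered 2 at an adjusted p under 0.01 (3103 over all genes). Without 1 array these calls numbered 2 to 5 (3542 to 3745 over all genes). The mean over methods, chosen after seeing the data, called 1358 genes at 0.01 in place of 2062. Without 1 array it called 3 to 6 of the 10 (1879 to 2065 over all genes).

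Uncalled differences near 0 turned sign. With median centring, PSD1 and INO2 with the direct random method were -0.0046 and -0.0032, CHO2 with the ds-cDNA method was -0.018, and PSD1 was 0.049 brighter with the indirect than with the ds-cDNA method. Quantile normalization within each method gave -0.015 for CHO2 with the ds-cDNA method. Without 1 array, the ranges with the direct random method were -0.087 to 0.022 for CHO1, -0.019 to 0.054 for PSD1 and -0.029 to 0.048 for INO2. With the indirect method they were -0.028 to 0.088 for CHO1, -0.052 to 0.22 for PSD1, -0.038 to 0.12 for INO2 and -0.17 to 0.0012 for PCT1. With the ds-cDNA method they were -0.17 to 0.030 for CHO1, -0.10 to 0.077 for CHO2 and -0.12 to 0.060 for INM1, and the intensity difference of CHO2 between the direct random and the ds-cDNA method ranged from -0.0090 to 0.081. No other difference of the 10 genes between strains changed sign in any alternative. The cause of these changes was not tested.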
